A study of Mus musculus with 12 samples.

Results

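The genes described here encode fibronectin, osteopontin and matricellular proteins, and they were chosen by name: Fn1, Spp1, Postn, Tnc, Thbs1, Thbs2, Sparc, Sparcl1, Vtn and Tnxb. They are 10 of the 45808 genes in the deposited table, and 9 of them passed the filter on low values, as did 14201 genes in all. Messenger RNA was sequenced in 4 groups of 3 libraries from mouse embryonic fibroblasts (MEFs). These were KO MEFs, which lack TG2 (transglutaminase 2, gene Tgm2), after heat shock and under control conditions, and WT MEFs after heat shock and under control conditions. Heat shock was 20 min in a water bath at 42 °C, and control cells stayed at 37 °C. Both kinds of cells derive from C57BL/6 embryos and grew on by passaging to spontaneous immortalization, so the genotypes are also separately derived lines, and an effect of the deletion and a difference between lines cannot be told apart. The sources used here do not say that the 3 libraries of a group were separate cultures, and the spread behind each p-value is that between libraries, which may be technical.

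The values are called signal: reads per gene that the authors divided by 1 size factor per library. Reads in genes numbered 15319300 to 27668395 per library, with a median of 19119552, and 1 read was worth 0.699 to 1.38 signal. The targeted gene Tgm2 was still read in KO MEFs. It had a signal of 1049, 526 and 1093 in the KO heat shock libraries and of 2049, 1957 and 1989 in the WT heat shock libraries, and of 1189, 1032 and 1065 in the KO control libraries against 1750, 1635 and 1605 in the WT control libraries. It was lower in all KO libraries (log2 fold change -1.24 after heat shock and -0.60 at 37 °C, limma adjusted p = 3.3e-05 and 0.010). Which exons the deletion removed is not given in the sources used here, so these reads do not check it. The call at 37 °C lies near the fold threshold of 1.5 and is lost with edgeR (-0.58), with quantile normalization (-0.56), without WT control replicate 1 (-0.57) and without KO control replicate 2 (-0.56). Of 9 fibroblast markers, 8 reached a signal of 10 in every library of every group, and their summed signal was 176469 to 199836 in KO heat shock, 135313 to 149641 in KO control, 286612 to 314671 in WT heat shock and 176284 to 198517 in WT control. Col1a1 carried the lower sum in KO, and the other markers went both ways. Without Col1a1 the sum was higher in KO, at 155198 to 175263 in KO heat shock, 123539 to 136386 in KO control, 118363 to 125928 in WT heat shock and 86259 to 91618 in WT control. Vim, Col1a2, Dcn and Thy1 lay higher in KO than in WT at the same temperature, and Col3a1, Pdgfra and Pdgfrb lower. The remaining marker, Lum, lay between 0.699 and 10.5. In bulk RNA, fewer cells of a type and less RNA per cell cannot be told apart.

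Fibronectin is a secreted adhesion protein that cells stretch through integrins into fibrils, on which other matrix proteins are laid down. Matricellular proteins are secreted into the same matrix, but they tune how cells hold on to it and how growth factors are released from it rather than bearing load. Osteopontin, vitronectin and fibronectin carry an arginine-glycine-aspartate (RGD) motif that integrins bind. TG2 outside the cell binds fibronectin, and it can cross-link fibronectin and osteopontin.

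The RGD codons are shown because the integrin subunits that read this motif are among the genes followed below. A search of the coding sequences (mouse build GRCm38, GENCODE M21 models) found in-frame RGD codons in 1561 of 21501 genes, 7.26%. They were present in 5 of the 10 genes and absent from Postn, Tnc, Sparc, Sparcl1 and Tnxb. Each line gives the 3 codons in capitals, 5′ to 3′ on the coding strand, with 15 bases on each side.
Fn1, exon 30 of 46, codons 1614 to 1616, chr1:71606746-71606754, minus strand: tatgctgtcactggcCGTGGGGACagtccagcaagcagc
Fn1, exon 40 of 46, codons 2181 to 2183, chr1:71597443-71597451, minus strand: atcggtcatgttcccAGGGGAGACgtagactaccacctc
Spp1, exon 7 of 8, codons 145 to 147, chr5:104439481-104439489, plus strand: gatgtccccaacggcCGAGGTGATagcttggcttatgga
Thbs1, exon 18 of 22, codons 927 to 929, chr2:118122882-118122890, plus strand: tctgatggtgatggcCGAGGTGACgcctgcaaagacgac
Thbs2, exon 18 of 22, codons 928 to 930, chr17:14671484-14671492, minus strand: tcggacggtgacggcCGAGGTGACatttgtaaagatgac
Vtn, exon 3 of 8, codons 64 to 66, chr11:78499706-78499714, plus strand: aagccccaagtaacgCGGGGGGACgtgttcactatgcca
Thbs1 and Thbs2 carry the motif in the same exon of 22 and at neighbouring codon positions.

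Promoter sequences are shown for Spp1 and Postn, the genes whose levels differed most between the genotypes, in opposite directions. RefSeq promoters (build GRCm38.p6) were at hand for Spp1, Postn, Tnc, Thbs2, Sparc, Vtn and Tnxb, 7 of the 10 genes. The 250 bases before the start of transcription are given 5′ to 3′ on the coding strand, for the listed start nearest to the gene's annotated start, with motif matches on either strand in capitals. The motifs searched were the letters TATAAA of the TATA box, the letters CCAAT of the CCAAT box, the GC box (GGGCGG), an AP-1 site (TGANTCA), a cyclic AMP response element (TGACGTCA), a TCF/LEF site (CTTTGA) and both orientations of the heat shock element pair, head to head (GAANNTTC) and tail to tail (TTCNNGAA). No matches of different motifs overlapped in the windows shown.
Spp1, chr5:104434861-104435110, plus strand: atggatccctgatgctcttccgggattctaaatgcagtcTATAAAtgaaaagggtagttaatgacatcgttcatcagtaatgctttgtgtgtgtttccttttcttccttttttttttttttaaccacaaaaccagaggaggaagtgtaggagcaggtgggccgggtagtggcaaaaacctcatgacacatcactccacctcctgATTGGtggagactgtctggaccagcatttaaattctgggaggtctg
Postn, chr3:54360857-54361106, plus strand: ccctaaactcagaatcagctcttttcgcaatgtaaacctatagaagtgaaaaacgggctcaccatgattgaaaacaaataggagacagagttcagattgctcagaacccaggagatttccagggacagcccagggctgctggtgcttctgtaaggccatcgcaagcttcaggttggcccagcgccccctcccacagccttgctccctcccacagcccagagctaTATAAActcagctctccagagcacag
In Spp1 the capitals mark TATAAA at -211 to -206 and CCAAT, read on the other strand, at -46 to -42 from the start. In Postn they mark TATAAA at -26 to -21. Of 32851 promoters of this length, 12.4% held TATAAA and 33.8% held CCAAT. The heat shock element letters GAANNTTC and TTCNNGAA, held by 6.69% and 7.17% of promoters, were not found in these windows for any of the 7 genes. A match is a description of letters, not a site in use.

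KO MEFs carried far more Spp1, Thbs2 and Fn1 RNA than WT MEFs, and far less Postn, Sparcl1, Tnc, Sparc and Thbs1 RNA. At 37 °C, 3 of the 9 tested genes were called higher in KO and 5 lower, and Tnxb was not called. The word called means here a fold of 1.5 or more with an adjusted p no larger than 0.05. Over all genes tested, 48.8% were called in this comparison, 22.9% higher and 25.8% lower, so a call was common in these lines. The median log2 fold change of the 9 genes was -1.60, against -0.04 over all tested genes. After heat shock the same counts held, 3 higher and 5 lower, where 48.7% of all genes were called (23.2% higher and 25.5% lower), and the median of the 9 was -1.47 against -0.03. The KO and WT libraries did not overlap for any of the 9 genes at 37 °C, as for 76.4% of all genes, and for 8 of 9 after heat shock, as for 78.4% of all genes. Postn and Sparcl1 passed the filter through WT libraries alone, so their direction and their separation were fixed in advance. They also pull both medians down, so nothing is read from the counts and medians of the 9 genes.

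**Figure D1:**
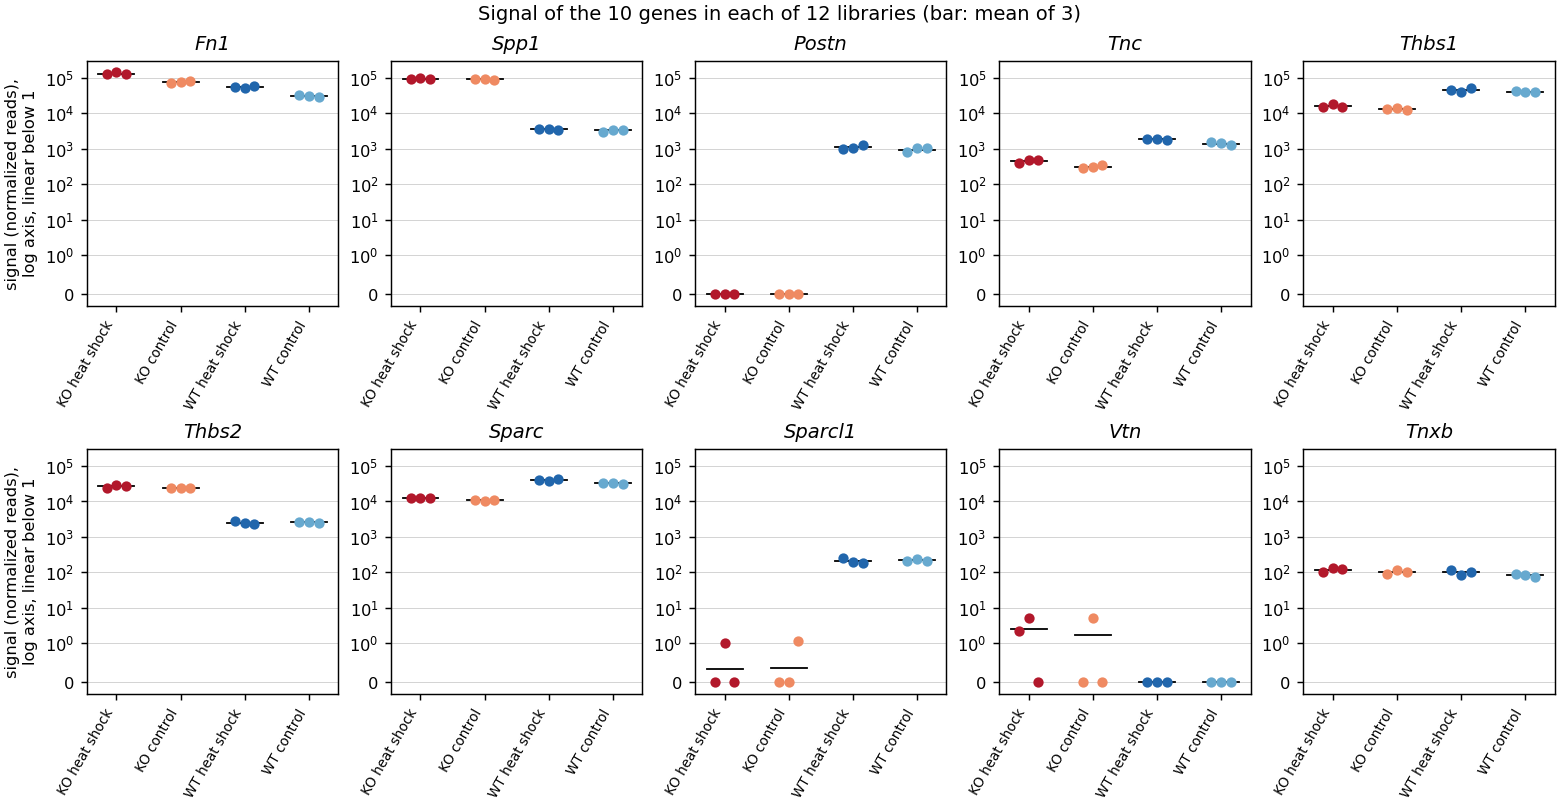
Signal (reads divided by the library's size factor) of each gene in the 12 libraries, on a log axis that is linear below 1, with points for single libraries and bars for the mean of 3. Spp1 lies between 90189 and 101078 in KO libraries and between 3034 and 3716 in WT libraries, and Postn is at 0 in all 6 KO libraries.

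Fn1 was the only 1 of the 10 genes called both between the genotypes and with heat shock. It lies on chromosome 1 (71585520 to 71653200, minus strand). Its signal was 125548, 143118 and 130573 in KO heat shock, 74431, 74775 and 80748 in KO control, 54302, 51470 and 57566 in WT heat shock, and 32977, 30905 and 28888 in WT control. The 4 groups did not overlap, in the order KO heat shock, KO control, WT heat shock and WT control from the highest. KO control cells had 2.48-fold the Fn1 signal of WT control cells (log2 fold change 1.31, SE 0.08, limma adjusted p = 6.6e-10), and KO heat shock cells 2.44-fold that of WT heat shock cells (1.29, SE 0.08, limma adjusted p = 7.9e-10). In the KO heat shock libraries Fn1 ranked 2nd or 3rd among all genes by signal, in the KO control libraries 8th, in the WT heat shock libraries 13th or 14th, and in the WT control libraries 30th to 34th. Fn1 shares 292 exon bases with Apol7d, an antisense gene on the other strand, which had a signal of 12.6 to 23.7 in KO and of 1.44 to 8.70 in WT libraries, and whether the counting used strand is not given in the sources used here.

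Spp1 encodes osteopontin, a phosphorylated glycoprotein of bone matrix and inflamed tissue that binds integrins and CD44. It lies on chromosome 5 (104435118 to 104441050, plus strand), and its promoter and RGD codons are shown above. Its signal was 93351, 101078 and 94608 in KO heat shock, 90913, 93316 and 90189 in KO control, 3680, 3716 and 3458 in WT heat shock, and 3034, 3428 and 3420 in WT control. All 6 KO libraries lay above all 6 WT libraries. The difference was 27.8-fold at 37 °C (log2 fold change 4.80, SE 0.06, limma adjusted p = 9.0e-17) and 26.6-fold after heat shock (4.73, SE 0.06, limma adjusted p = 1.1e-16). Spp1 took 0.467 to 0.495% of all reads in genes in the KO libraries, against 0.0155 to 0.0183% in the WT libraries. In the gene models used here, Spp1 shares 309 exon bases with Gm42793 on the same strand. Gm42793 has no entry in the deposited table, and whether reads in that stretch were left uncounted was not tested. Marker lists of other cell types moved in both directions beside it. The summed signal of the 5 skeletal and smooth muscle markers was 442 to 463 in KO heat shock, 350 to 417 in KO control, 139 to 172 in WT heat shock and 107 in all WT control libraries, the same direction as Spp1. Most of it was Des (191 to 244 in KO and 7.26 to 17.4 in WT) and Cnn1 (141 to 231 in KO and 94.4 to 157 in WT), while the muscle regulators Myod1 and Myog reached at most 3.18 and 2.26. Of the osteoclast markers, Acp5 was at 3.18 to 13.5 in KO and at 0 to 2.17 in WT libraries, and Ctsk at 8.30 to 20.3 in KO and 48.9 to 67.2 in WT. Among macrophage markers, Adgre1 had no read in any library, Ptprc reached at most 2.26 and Tyrobp at most 1.13, while Csf1r lay at 3.39 to 21.5 in KO and at 4039 to 5416 in WT libraries. The summed signal of the 8 macrophage markers was 147 to 152 in KO heat shock, 93.8 to 119 in KO control, 5212 to 5620 in WT heat shock and 4155 to 4778 in WT control, almost all of it Csf1r in WT. The part of other cell types in the Spp1 difference was not tested. Of the osteoblast markers, the bone sialoprotein gene Ibsp had no read, and the osteoblast transcription factor Runx2 had a signal of 776 to 893 in KO and of 1124 to 1465 in WT libraries.

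The pair of thrombospondins moved in opposite directions. Thbs1 encodes thrombospondin 1, an activator of latent TGF-beta and an inhibitor of angiogenesis, and Thbs2 its closest relative, which also restrains angiogenesis and shapes collagen fibrils. Thbs1 (chromosome 2, 118111876 to 118127133, plus strand) had a signal of 15091, 18969 and 15616 in KO heat shock, 13217, 14221 and 12598 in KO control, 45575, 40951 and 50920 in WT heat shock, and 42063, 40465 and 39126 in WT control. Every KO library lay below every WT library, and the fold was 3.04 at 37 °C (log2 fold change -1.60, SE 0.09, limma adjusted p = 5.7e-10) and 2.77 after heat shock (-1.47, limma adjusted p = 1.6e-09). Thbs2 (chromosome 17, 14665500 to 14694235, minus strand) had a signal of 24769, 28594 and 26802 in KO heat shock, 23840, 23444 and 24670 in KO control, 2793, 2408 and 2284 in WT heat shock, and 2605, 2690 and 2539 in WT control. Here every KO library lay above every WT library, 9.18-fold at 37 °C (log2 fold change 3.20, SE 0.07, limma adjusted p = 1.8e-14) and 10.7-fold after heat shock (3.42, limma adjusted p = 8.9e-15). The ratio of Thbs2 to Thbs1 signal was therefore above 1 in all KO libraries (1.51 to 1.72 in KO heat shock and 1.65 to 1.96 in KO control) and far below 1 in all WT libraries (0.0449 to 0.0613 in WT heat shock and 0.0619 to 0.0665 in WT control). The summed signal of the pair differed far less than either gene. It was 39861 to 47563 in KO heat shock, overlapping with 43358 to 53204 in WT heat shock, and 37057 to 37665 in KO control, below the 41665 to 44668 of WT control. This sum is not scaled for length, and Thbs1 and Thbs2 have 6073 and 7003 bases of annotated exons.

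**Figure D2:**
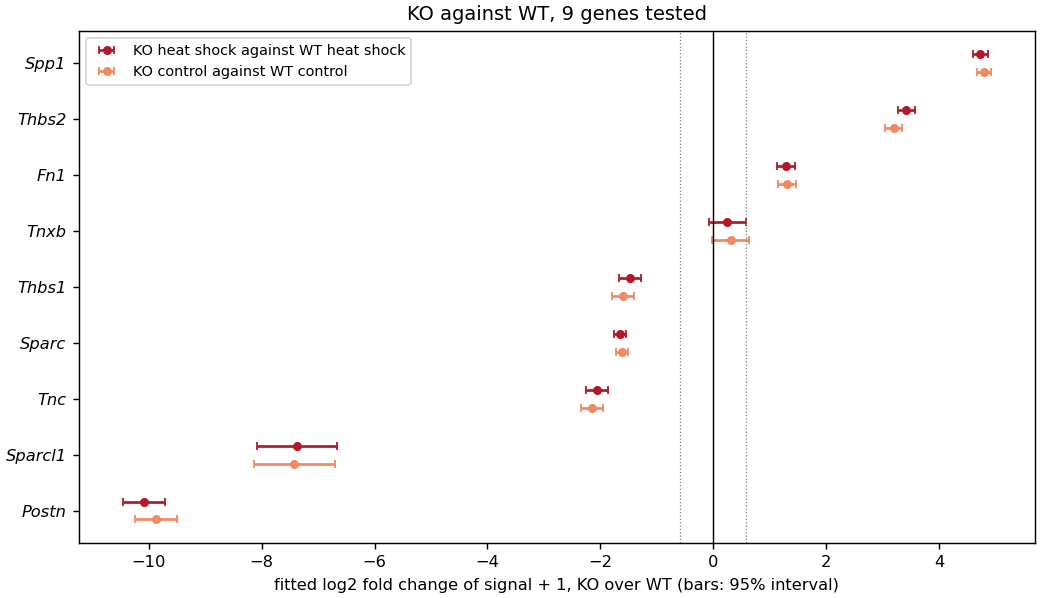
Fitted log2 fold change of signal + 1, KO over WT, for the 9 genes tested, after heat shock (red) and at 37 °C (orange), with 95% intervals and dotted lines at a fold of 1.5. Spp1, Thbs2 and Fn1 lie to the right and Thbs1, Sparc, Tnc, Sparcl1 and Postn to the left at both temperatures. The fitted values of Postn and Sparcl1 depend on the pseudocount, since KO libraries held 0 and 1 read per group.

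Tenascins and periostin are laid down in developing and wounded tissue. Tnc encodes tenascin C, which weakens the hold of cells on fibronectin. Tnc (chromosome 4, 63959785 to 64047015, minus strand) had a signal of 390, 474 and 474 in KO heat shock, 295, 309 and 339 in KO control, 1927, 1899 and 1765 in WT heat shock, and 1515, 1445 and 1251 in WT control. Its KO libraries all lay below its WT libraries, 4.45-fold at 37 °C (log2 fold change -2.15, SE 0.09, limma adjusted p = 2.0e-11) and 4.19-fold after heat shock (-2.07, limma adjusted p = 3.1e-11). Tnxb, for tenascin X, which is bound to collagen fibrils, had low values that differed little between groups (chromosome 17, 34670535 to 34719815, plus strand). They were 104, 131 and 125 in KO heat shock, 91.2, 115 and 104 in KO control, 118, 84.8 and 101 in WT heat shock, and 90.2, 83.0 and 75.5 in WT control. The KO control libraries lay just above the WT control libraries, and the heat shock groups overlapped. Neither difference passed the test (0.31, 95% interval -0.01 to 0.64, limma adjusted p = 0.076 at 37 °C, and 0.25, -0.08 to 0.58, limma adjusted p = 0.15 after heat shock). With quantile normalization, which set the median of all genes at 37 °C to 0.09 in place of -0.04, Tnxb was called higher in both (0.73 and 0.59).

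Postn, for periostin, a protein that binds integrins and helps collagen to cross-link, had no read in any KO library. It lies on chromosome 3 (54361109 to 54391037, plus strand). Its signal was 0 in all KO heat shock and KO control libraries, against 1008, 1022 and 1257 in WT heat shock and 793, 1021 and 1028 in WT control. The groups held 0 reads in KO heat shock against 2872 in WT heat shock and 0 in KO control against 3651 in WT control. A count of 0 was given a floor of 3 reads over the group. With it, Postn was at least 1010-fold lower in KO after heat shock and at least 975-fold lower at 37 °C. Its direction was fixed in advance by the filter, so no p-value is given. Intervals and floors given here cover counting error only, since reads copied by PCR are not independent molecules.

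Sparc, also called osteonectin, encodes a collagen-binding protein that loosens cell adhesion, and Sparcl1 encodes its relative hevin. Sparc (chromosome 11, 55394500 to 55423183, minus strand) had a signal of 12619, 12749 and 12788 in KO heat shock, 10865, 10615 and 10773 in KO control, 39172, 38719 and 42354 in WT heat shock, and 34204, 33145 and 31795 in WT control. Each of the 4 groups was separate from the others. KO was 3.07-fold lower at 37 °C (log2 fold change -1.62, SE 0.05, limma adjusted p = 8.4e-13) and 3.15-fold lower after heat shock (-1.65, limma adjusted p = 6.5e-13). Sparcl1 (chromosome 5, 104079111 to 104113733, minus strand) was read in WT MEFs alone apart from single reads. Its signal was 0, 1.04 and 0 in KO heat shock, 0, 0 and 1.13 in KO control, 257, 190 and 187 in WT heat shock, and 210, 237 and 213 in WT control. That is 1 read over KO heat shock against 571 over WT heat shock, and 1 over KO control against 836 over WT control. The ratio of WT to KO signal was 602 after heat shock (95% Clopper-Pearson interval 108 to 23838) and 670 at 37 °C (120 to 26486). Sparcl1 passed the filter through WT libraries alone, so its direction was fixed in advance and no p-value is given for it.

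Vtn encodes vitronectin, an adhesion protein made mainly by the liver that circulates in plasma (chromosome 11, 78499091 to 78502324, plus strand). It was at the edge of detection and did not pass the filter. Its signal was 2.26, 5.19 and 0 in KO heat shock, 0, 4.99 and 0 in KO control, and 0 in all 6 WT libraries, so 3 of 6 KO libraries had any read. KO heat shock held 7 reads, 2 in replicate 1 and 5 in replicate 2, and all 6 reads of KO control were in replicate 2, too few to give a fold. Of the 5 hepatocyte markers, Alb and Serpina1a had no read in any library, and Ttr reached at most 0.988. Afp lay at 13.5 to 26.5 in WT and at 0 to 0.832 in KO libraries, the opposite direction to Vtn. Apoa1 lay at 0 to 7.61 in WT and at 0 to 4.52 in KO libraries.

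Heat shock raised Fn1 in both genotypes and left the other genes under the fold threshold. Postn had no read in KO and Sparcl1 almost none, so neither could be called there. By the values above, Fn1 was 1.73-fold higher in KO heat shock over KO control (log2 fold change 0.79, 95% interval 0.63 to 0.96, limma adjusted p = 7.0e-05) and 1.76-fold in WT heat shock over WT control (0.82, 0.65 to 0.98, limma adjusted p = 2.8e-05). All 3 heat shock libraries lay above all 3 control libraries in each genotype. The summed signal of the fibroblast markers given above was also higher after heat shock in every library of each genotype, with and without Col1a1. Single markers overlapped between heat shock and control, Pdgfra and Lum in both genotypes, Dcn in WT and Thy1 in KO. The part of the fibroblast markers in the Fn1 difference was not tested. The difference between the responses did not pass the interaction test (-0.02, 95% interval -0.25 to 0.21, limma adjusted p = 0.93). Fn1 was the only 1 of the 9 genes called in KO, where 0.887% of all genes were called (0.577% higher and 0.31% lower), and the only 1 called in WT, where 3.68% were called (1.66% higher and 2.02% lower). The KO call is lost when the KO libraries are fitted alone on the same 14201 genes (0.79, limma adjusted p = 0.090), and it is kept when the filter is applied within them.

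Tnc and Sparc rose less than 1.5-fold with an adjusted p under 0.05, so they were not called. For Tnc the log2 fold change was 0.50 in KO (95% interval 0.30 to 0.70, limma adjusted p = 0.0090) and 0.41 in WT (0.22 to 0.61, limma adjusted p = 0.0056), with no overlap of heat shock and control libraries. Without KO heat shock replicate 1, the lowest of its group for Tnc, the KO value was 0.59 and was called. For Sparc it was 0.24 in KO (0.13 to 0.35, limma adjusted p = 0.022) and 0.28 in WT (0.17 to 0.39, limma adjusted p = 0.0023). Of these Tnc and Sparc changes, only that of Tnc in WT kept an adjusted p under 0.05 in every alternative run. The Sparc change fell as low as 0.12 in KO and 0.041 in WT. Spp1, whose level set the genotypes apart most among the genes read in both, had values of 0.07 in KO (-0.05 to 0.20, limma adjusted p = 0.59) and 0.14 in WT (0.01 to 0.26, limma adjusted p = 0.099). Thbs1 had values of 0.31 in KO (0.11 to 0.50, limma adjusted p = 0.10) and 0.17 in WT (-0.03 to 0.37, limma adjusted p = 0.18). Thbs2 gave 0.15 in KO (limma adjusted p = 0.29) and -0.07 in WT (limma adjusted p = 0.49). Its difference in response between the genotypes, 0.22, was the largest in size among the 7 genes read in both genotypes, and it did not pass (95% interval 0.01 to 0.44, limma adjusted p = 0.26). Tnxb gave 0.21 in KO and 0.27 in WT (limma adjusted p = 0.54 and 0.20). In WT alone, Postn gave 0.21 (limma adjusted p = 0.39) and Sparcl1 -0.07 (limma adjusted p = 0.90).

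**Figure D3:**
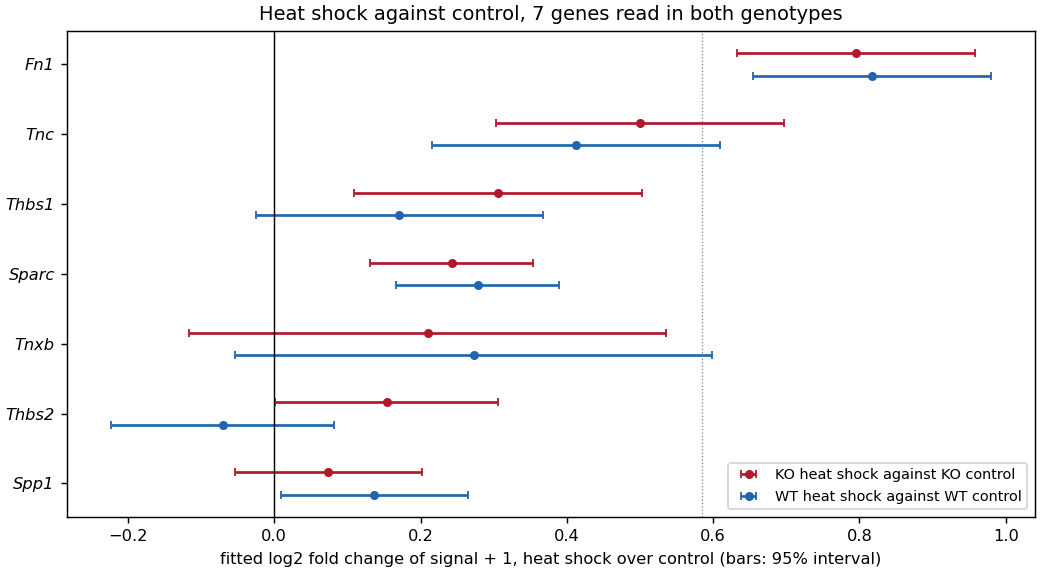
Fitted log2 fold change of signal + 1, heat shock over control, in KO (red) and WT (blue), with 95% intervals and a dotted line at a fold of 1.5, for the 7 genes read in both genotypes. Fn1, at 0.79 in KO and 0.82 in WT, is the gene whose intervals lie wholly beyond the dotted line in both genotypes.

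The median heat shock change of the 9 tested genes was 0.21 in KO and 0.21 in WT, against 0.00 over all tested genes in both. In KO, the heat shock and control libraries did not overlap for 6 of 9 genes, where 21.6% of all genes were so separated. In WT they did not overlap for 4 of 9, where 42.4% were. Postn had no read in KO and Sparcl1 almost none, which set their KO heat shock values (0 and -0.02). Neither gene could be separated or called in KO, so nothing is read from the KO median and the KO count. The differences in response of Postn and Sparcl1 rest on the WT libraries. None of the 9 genes was called for a different response in the genotypes, and neither was any of the 14201 genes by limma (0%), although 2532 genes, Thbs2 among them, had an unadjusted p under 0.05. DESeq2 called 35 genes and edgeR 10, and neither called any of the 9. The heat shock comparisons in KO and in WT share no library, though both were fitted over the same 12 libraries. The comparisons of KO with WT after heat shock and under control conditions share none either. Each heat shock comparison does share libraries with both comparisons of KO with WT, so those values are not independent of each other.

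Per kilobase of annotated exon, the order of levels differed between the genotypes. In KO MEFs Spp1 led with a mean signal per kilobase of 58462 in KO heat shock and 55505 in KO control. Fn1 followed with 11389 and 6560, then Thbs2 with 3816 and 3425, Sparc with 3358 and 2838, and Thbs1 with 2727 and 2197. In WT MEFs Sparc led with 10581 in WT heat shock and 8724 in WT control, followed by Thbs1 (7544 and 6677), Fn1 (4659 and 2646), Spp1 (2195 and 1999) and Thbs2 (356 and 373). Neighbours in these orders did not overlap between libraries, and the same held for Tnc, Tnxb and, in WT, Postn and Sparcl1 further down. Vtn, Sparcl1 and Postn overlapped at the bottom in KO. The place of Thbs2 above Sparc in KO depends on the length used. Per kilobase of the longest transcript Sparc stood above Thbs2, at 5530 against 4533 in KO heat shock and 4674 against 4069 in KO control, and it did so per kilobase of coding length as well, where it overlapped with Fn1 in KO control. Per kilobase of coding length Postn stood above Tnc in WT (436 against 294 in WT heat shock and 377 against 222 in WT control). All 10 genes together took 1.38 to 1.49% of reads in KO heat shock, 1.097 to 1.15% in KO control, 0.692 to 0.758% in WT heat shock and 0.560 to 0.599% in WT control. Spp1 and Fn1 made up most of this in KO, 1.11 to 1.19% in KO heat shock and 0.849 to 0.899% in KO control. The ratio of Spp1 to Fn1 signal was 0.706 to 0.744 in KO heat shock and 1.117 to 1.25 in KO control, against 0.0601 to 0.0722 in WT heat shock and 0.0920 to 0.118 in WT control. In each genotype it was lower after heat shock in all libraries.

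**Figure D4:**
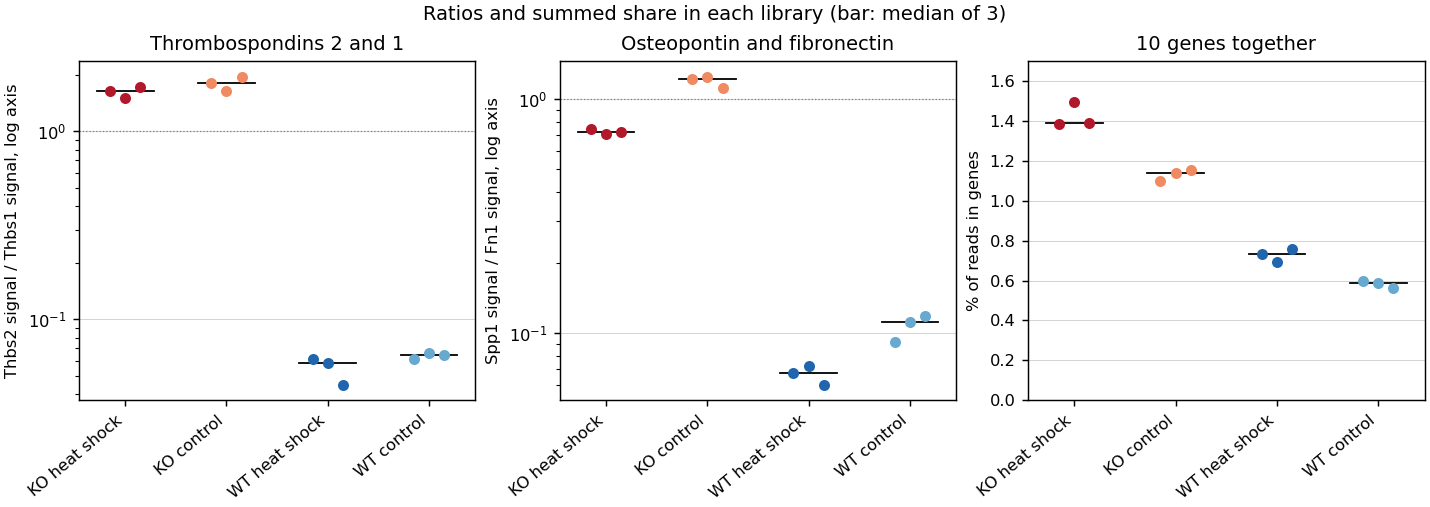
Ratio of Thbs2 to Thbs1 signal (left, log axis), ratio of Spp1 to Fn1 signal (middle, log axis) and share of reads in genes taken by the 10 genes (right), with a point per library, bars for the median of 3 and a dotted line at a ratio of 1. Thbs2 exceeds Thbs1 in the 6 KO libraries (1.51 to 1.96) and is below it in the 6 WT libraries (0.0449 to 0.0665).

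The genes whose level across the 12 libraries was most like that of Fn1, Spp1 and Thbs1 were sought among 7157 genes with a mean signal of at least 500, as a description. The libraries of a group share their genotype and treatment, so a high Pearson r mostly restates the group means. For Fn1 they were P3h3 (r = 0.991), Atxn2l (0.987) and Rpl10 (0.987), and 1 gene reached 0.99. For Spp1 they were Hid1, Pttg1 and Peg3 (0.9996, 0.9995 and 0.9994), among 287 genes at or above 0.99. For Thbs1 they were Vcp, Abca3 and Pdia4 (0.997, 0.996 and 0.996), among 68 genes at or above 0.99. Pttg1 averaged 3073 in KO heat shock and 2934 in KO control and had no read in WT libraries, and Peg3 averaged 2022 and 2027 in these KO groups and had none in WT.

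Of 16 relatives in the same families, 7 passed the filter, and 0 were called higher and 5 lower after heat shock and 1 higher and 5 lower at 37 °C. Over all genes tested 23.2% and 22.9% were called higher and 25.5% and 25.8% lower. Smoc2 and Tnn passed the filter through WT libraries alone, so nothing is read from these counts. Smoc1 was at a signal of 6.78 to 21.7 throughout, and Comp was not called at either temperature. Smoc2, which shares the calcium-binding module of SPARC, had no read in KO against 5659 reads in WT heat shock and 7372 in WT control (at least 1990-fold and 1969-fold lower). Tgfbi, a relative of periostin, averaged 706 in KO heat shock and 531 in KO control, against 8153 in WT heat shock and 5768 in WT control (log2 fold change -3.53 and -3.44, limma adjusted p = 2.3e-15 and 2.7e-15). Fstl1, of the SPARC family, had values of -1.11 and -1.07 (limma adjusted p = 8.7e-11 and 1.3e-10). Thbs3, for the pentameric thrombospondin 3, was called higher at 37 °C (0.69, limma adjusted p = 8.6e-07) and had a value of 0.55 after heat shock (limma adjusted p = 9.7e-06), under the fold threshold. Thbs4, Tnr, Spock1, Spock2, Spock3, Ibsp, Dmp1, Dspp and Mepe did not pass the filter.

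Integrins are heterodimers of an alpha and a beta subunit that hold these proteins at the cell surface. Of the 12 subunits fixed, 10 were tested, with 3 called higher and 5 lower after heat shock and 2 higher and 5 lower at 37 °C. Over all genes tested, 23.2% were called higher and 25.5% lower after heat shock, and 22.9% and 25.8% at 37 °C. Itga8 and Itga9 passed the filter through WT libraries alone. Itgb8, at 5.44 to 10.9 in WT libraries, passed it through KO libraries, so nothing is read from these counts. Itga9, a subunit of the receptor for tenascin C and osteopontin, had no read in KO against 665 reads in WT heat shock and 966 in WT control (at least 234-fold and 258-fold lower). Itgb3, the beta chain that pairs with alpha v to bind vitronectin and osteopontin, averaged 61.3 in KO heat shock and 64.2 in KO control, against 888 in WT heat shock and 869 in WT control (-3.83 and -3.76, limma adjusted p = 7.05e-13 and 8.9e-13). Itga5, which with beta 1 forms the main fibronectin receptor, was lower in KO by a log2 fold change of -1.47 after heat shock and -1.34 at 37 °C (limma adjusted p = 2.3e-10 and 6.6e-10), while Fn1 itself was higher. Itgb5 was lower too (-0.95 and -0.91, limma adjusted p = 8.9e-10 and 1.5e-09). The chains shared by many of these receptors differed less. Itgav had values of 0.00 after heat shock and -0.31 at 37 °C (limma adjusted p = 0.98 and 0.0017), neither called. Itgb1 was called higher in KO after heat shock (0.68, limma adjusted p = 1.6e-06) and had a value of 0.34 at 37 °C (limma adjusted p = 0.0010).

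Of the 10 other receptors fixed, 9 were tested, with 2 called higher and 1 lower after heat shock and 1 of each at 37 °C. Over all genes tested, 23.2% were called higher and 25.5% lower after heat shock, and 22.9% and 25.8% at 37 °C. The gene called lower, Stab1, passed the filter through WT libraries alone, so nothing is read from these counts. Stab1, a scavenger receptor that takes up SPARC, had 5 reads in KO heat shock against 7104 in WT heat shock and 2 in KO control against 8531 in WT control. The ratio of WT to KO signal was 1499 (95% Clopper-Pearson interval 642 to 4618) after heat shock and 3417 (946 to 28223) at 37 °C. Sdc4, for the heparan sulfate proteoglycan syndecan 4 that helps integrins to hold fibronectin, was higher in KO (1.43 and 1.37, limma adjusted p = 1.2e-12 and 1.8e-12). Cd44, the hyaluronan receptor that also binds osteopontin, was called higher in KO after heat shock (0.64, limma adjusted p = 1.2e-08) and had a value of 0.54 at 37 °C (limma adjusted p = 9.5e-08), under the fold threshold. The thrombospondin receptor Cd47 had values of 0.19 and -0.13 (limma adjusted p = 0.042 and 0.15), neither called, and the other thrombospondin receptor, Cd36, had no read in any library. Lrp1, an endocytic receptor for thrombospondins and protease complexes, was the only gene of these lists called with heat shock in either genotype, 0.64 in KO and 0.68 in WT (limma adjusted p = 2.7e-04 and 1.2e-04), and both calls are lost with quantile normalization (0.50 and 0.49).

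All 12 binding partners and activators were tested, with 3 called higher and 6 lower after heat shock and 2 higher and 7 lower at 37 °C. Over all genes tested, 23.2% were called higher and 25.5% lower after heat shock, and 22.9% and 25.8% at 37 °C. Mmp3, for stromelysin 1, a protease that cleaves fibronectin and osteopontin, passed the filter through WT libraries alone, so its direction was fixed in advance. It averaged 2.11 in KO heat shock and 3.45 in KO control, against 148 in WT heat shock and 120 in WT control. These KO groups held 6 and 10 reads, and the WT groups 397 and 463. The fitted log2 fold changes, -5.71 after heat shock and -4.97 at 37 °C, depend on the pseudocount. Fbln2, for fibulin 2, which binds fibronectin, averaged 8033 in KO heat shock and 5368 in KO control, against 65381 in WT heat shock and 47531 in WT control (-3.03 and -3.14, limma adjusted p = 4.2e-13 and 2.9e-13). Tgfb1, for the latent growth factor that thrombospondin 1 activates, was lower (-1.78 and -1.43, limma adjusted p = 2.6e-10 and 3.4e-09). Of the tested integrin subunits 80% were called after heat shock and 70% at 37 °C, and of the other receptors 33.3% and 22.2%. Of the binding partners and activators 75% were called at both temperatures. The background was 48.7% after heat shock and 48.8% at 37 °C, and nothing is read from these shares.

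**Figure D5:**
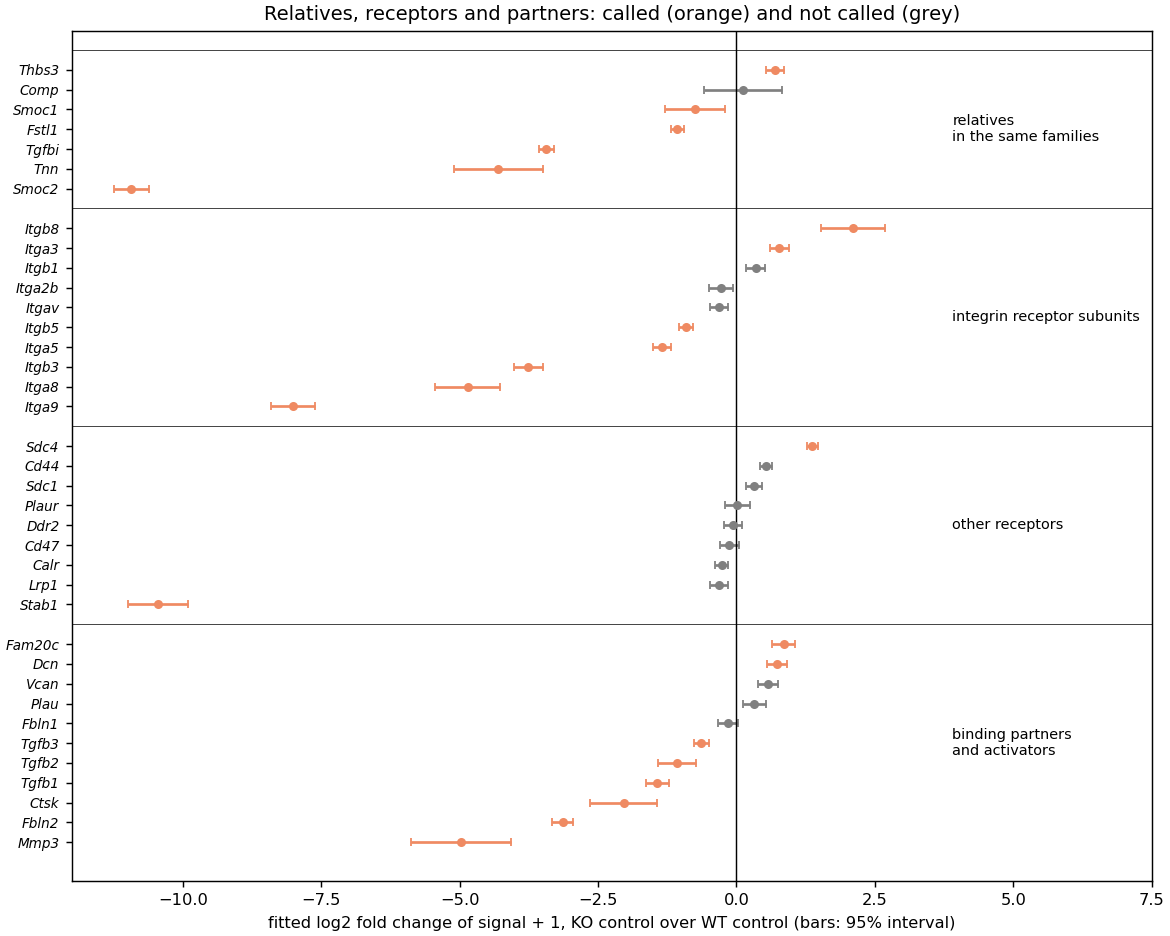
Fitted log2 fold change of signal + 1, KO control over WT control, with 95% intervals, for the tested relatives, integrin subunits, other receptors and binding partners (1 partner is not drawn), called in orange and not called in grey. Smoc2, Stab1 and Itga9 lie farthest to the left, where KO control held 0, 2 and 0 reads, and Itgb8 and Sdc4 lie farthest to the right.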

How the data were processed

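Poly-A RNA was read as stranded paired ends. The authors trimmed reads with cutadapt 1.10, aligned them with STAR 2.5.2, counted them per gene with HTSeq-count 0.6.1 and normalized with DESeq2 1.12. The submitters' notes name mm9 and the paper's methods GRCm38, and coordinates here are those of GRCm38. The deposited signal is the count divided by 1 size factor per library. All 549696 values came out as whole reads within 0.01 read (100%).

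A gene was tested if its signal was at least 10 in at least 3 libraries. Values of log2(signal + 1), a scale that understates changes of low genes, were fitted over the 12 libraries with limma 3.58.1 in R 4.3.3, with Benjamini-Hochberg adjustment over all genes tested. Alternatives were a pseudocount of 5, other filters, quantile normalization, a replicate block, fits of the compared groups, edgeR 4.0.16 and DESeq2 1.42.0 on the recovered reads, and leaving out each library. The steps were tested on simulated data.

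All 10 genes and Tgm2 are named, with up to 4 called genes of each other list per comparison (by size of change, with a group mean of 100 or more) and Itgav, Itgb1, Itgb3, Itga5, Cd44, Cd36, Cd47 and Sdc4. A binding partner that this rule names is not reported here. The 10 genes and the lists were chosen with earlier results of these data known.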

Additional observations from a re-analysis of the deposited data

How the results depend on the processing

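The counts of the 10 genes called, 8 for KO control against WT control, 8 for KO heat shock against WT heat shock, 1 for heat shock in WT and 0 for the difference in response, were kept under the alternatives run, except that quantile normalization, which added Tnxb, gave 9 for each of the comparisons of KO with WT. The count for heat shock in KO was 1, and 1 to 2 when single libraries were left out. The 2 came without KO heat shock replicate 1. It was 0 when the KO libraries were fitted alone on the genes of the 12-library filter, an alternative chosen after seeing the data, and the cause was not tested. With a floor of 3 reads per library, Postn was at least 325-fold lower in KO at 37 °C and 337-fold lower after heat shock. Values near 0 that were not called changed sign. With quantile normalization the difference in response became 0.13 for Fn1 and 0.076 for Sparc, the heat shock change -0.18 for Spp1 in KO and -0.088 for Thbs1 in WT. With single libraries left out, the difference in response was -0.076 to 0.026 for Fn1, -0.060 to 0.0050 for Sparc and -0.18 to 0.052 for Tnxb, the heat shock change of Sparcl1 in WT -0.22 to 0.0083, and KO over WT after heat shock -0.053 to 0.068 for Itgav. In all, the 9 tested genes kept both sign and call in 829 of 847 gene-by-setting values. These leave out Vtn, and Postn and Sparcl1 for heat shock in KO and for the difference in response.

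The labels give no origin for the replicate numbers, and same-numbered libraries deviated together in 2 of 18 pairs (correlation above 0.1, range -0.071 to 0.205), with 6 of 12 libraries closest to their own number, so the main design has no block. The replicate block gave 8, 8, 1, 1 and 0 genes of the 10 called.

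Over all genes, those called with heat shock in WT were 236 higher and 287 lower. The higher calls were 122 with a filter of 50 and 157 without WT control replicate 3, and the lower calls 477 without WT control replicate 1, 449 without WT heat shock replicate 1 and 156 without WT control replicate 3. With heat shock in KO, 82 were called higher and 44 lower, against 30 and 14 when KO libraries were fitted alone on the same genes, and the lower calls were 29 without KO control replicate 2 and 28 without KO control replicate 3. For the difference in response, 0 were called, but 12 with a pseudocount of 5, 4 with quantile normalization, 3 with a filter of 50, 35 by DESeq2, 10 by edgeR, 134 without WT control replicate 1, 72 without WT heat shock replicate 1, 13 without KO control replicate 3, 8 without WT heat shock replicate 3 and 1 without KO control replicate 1. Genes with few reads, such as Vtn and Sparcl1 in KO, are limited by depth. With the length of the longest transcript or of the coding sequence in place of exon length, 7 to 10 of the 10 places in the order of levels were kept.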
